A study of Fragaria x ananassa with 21 samples.

Results

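The miR169 family of strawberry receptacles was described across 7 small RNA libraries, together with the transcripts that degradome sequencing listed as its targets. Its members were all distinct sequences of the small RNA table whose name held miR169, which gave 12 of 1735 distinct sequences. The study injected fruits of the octaploid cultivar 'Toyonoka' through the pedicel with 100 μL of abscisic acid (ABA, 1 μM), of nordihydroguaiaretic acid (NDGA, 100 μM, a blocker of ABA synthesis) or of distilled water. Injections were made at the fruit age of 2 weeks after flowering, the achenes (the seed-bearing fruits on the surface) were removed, and receptacles were taken on day 0, 5 or 8. The 7 groups were ABA5 and NDGA5 with their water control CK5, ABA8 and NDGA8 with their water control CK8, and the water-injected day 0 fruit CK0, where the number is the day. Each group had 1 library per assay (small RNA, degradome and transcriptome), made from pooled RNA of individual fruits, so that no replicate spread and no test between groups could be had. Intervals in brackets are 95% exact binomial (Clopper-Pearson) intervals that cover counting error only, and reads from a PCR library are not independent molecules.

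miR169 is a conserved plant miRNA family. In Arabidopsis and other plants it pairs with mRNAs of NF-YA (also called HAP2 or CBF-B), the subunit through which the trimeric nuclear factor Y binds CCAAT boxes in promoters, and directs cleavage of those mRNAs opposite its 10th and 11th base. NF-YA factors are known for roles in drought and ABA responses, nitrogen supply, flowering time and embryo development. A degradome library sequences the 5′ ends of cleaved, uncapped mRNAs, so reads that begin at one transcript position mark a cleavage product there.

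Of the 12 sequences, 7 reached 50 normalized reads in at least 1 library, and these are shown because they are the members whose levels are given one by one (the summed level uses all 12). Normalized reads are the authors' library-scaled reads, and each sequence is written 5′ to 3′ with the seed (bases 2 to 8) in capitals and with T for U, as in the file. Names are shortened to the part before the first _ sign, and the suffix in the file records the bases by which the strawberry sequence differs from the database miRNA.
mdm-miR169b: tAGCCAAGgatgacttgcct
ppe-miR169k: aAGCCAAGgatgaattgccgg
ppe-miR169d: tGAGCCAAggatgacttgcct
cme-miR169r: tGAGCCAAgaatgacttgctg
ptc-miR169t: tGAGCCAGgaatgacttgccggc
bdi-miR169h-3p: aGGCAGTCaccttggctaac
stu-miR169c-3p: gGCAGTCTccttggctatc
The first 5 are of the 5p type that pairs with NF-YA mRNAs, and the last 2 are named as 3p, the opposite arm of the precursor, although the file lists stu-miR169c-3p on the 5′ arm. mdm-miR169b and ppe-miR169k shared the seed AGCCAAG, as did mdm-miR169c_R-2 (tAGCCAAGgatgacttgcc) and ptc-miR169ab among the rarer members. ppe-miR169d and cme-miR169r shared GAGCCAA, and ptc-miR169t had GAGCCAG. ppe-miR169d has the same last 19 bases as mdm-miR169b, behind TG in place of T. Its seed therefore lies 1 base further towards the 5′ end of the shared stretch. The rarer mdm-miR169c_R-2 reached 16.1 normalized reads, in CK5, and the other 4 sequences (ptc-miR169ab, tcc-MIR169n-p3, bdi-miR169c-3p and ppe-MIR169e-p3) stayed at or below 4.43 normalized reads in every library.

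The file placed 10 of the 12 sequences in 8 hairpins on linkage groups LG3, LG4 and LG5. No source used here names the genome build of these coordinates, and no gene annotation was set against them. A total of 5 hairpins lay within 25416 bases of LG4, from position 6034963 to 6060378. In the order of the map they belonged to cme-miR169r (6034963 to 6035133, minus strand), ptc-miR169t (6036288 to 6036461, plus strand), ppe-miR169d (6058463 to 6058623, minus strand), mdm-miR169c_L+1R-1 (6058729 to 6058882, minus strand) and ppe-miR169k (6060200 to 6060378, plus strand). Those of ppe-miR169d and mdm-miR169c_L+1R-1 carried the same mature sequence, given above as ppe-miR169d. The hairpin at 6058729 held it exactly, whereas the hairpin at 6058463 differed by G13A (counted from 1 at the 5′ end, the listed sequence first). The file divides the reads between both rows, and the summed value is used throughout. LG3 held 2 hairpins for mdm-miR169b, at 8877679 to 8877857 and 1884312 to 1884495 on the minus strand, and the first of them also held bdi-miR169h-3p. LG5 held mdm-miR169c_R-2 and bdi-miR169c-3p at 4289913 to 4290069 on the minus strand.
The hairpin with the exact copy is shown with both arms listed in the small RNA table in capitals, the left one being ppe-miR169d.
LG4 hairpin: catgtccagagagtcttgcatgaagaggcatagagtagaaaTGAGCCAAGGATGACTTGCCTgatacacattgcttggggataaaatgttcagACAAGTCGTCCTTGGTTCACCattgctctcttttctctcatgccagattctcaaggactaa

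**Figure D1:**
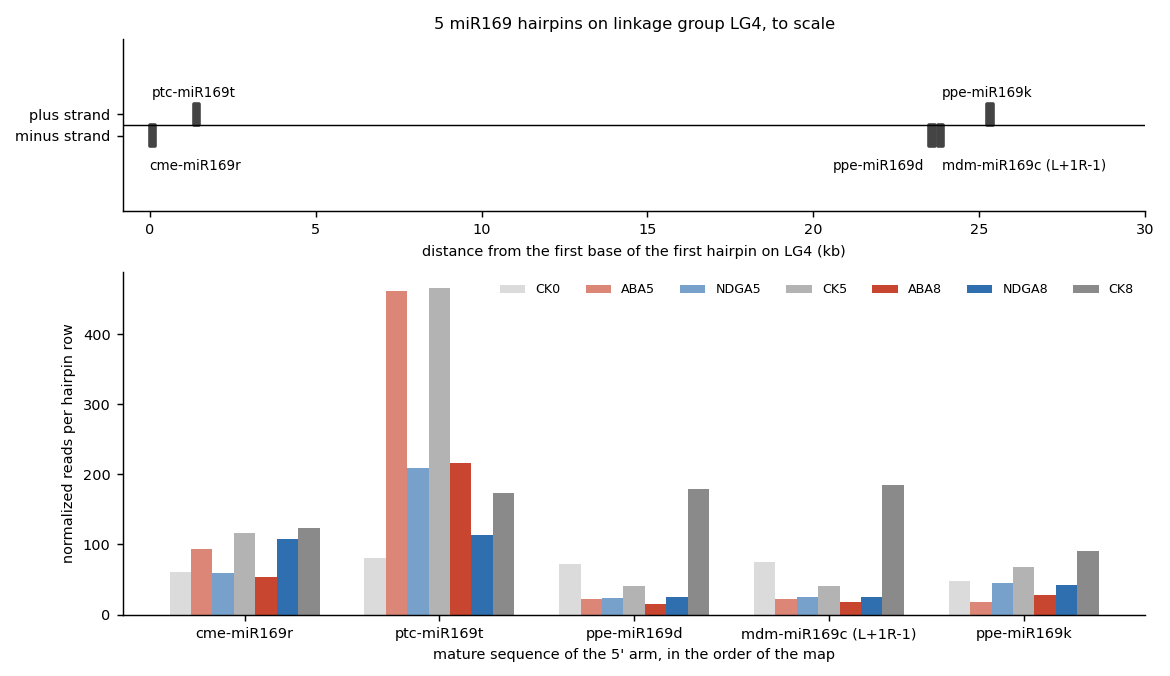
Top, the 5 miR169 hairpins on LG4 drawn to scale by their distance in kb from the first base of the first hairpin, on the plus or minus strand. Bottom, normalized reads of the 5′ arm in each of 7 libraries (bars; 1 library each), where ptc-miR169t is highest in ABA5 and CK5 and both copies of the ppe-miR169d sequence are highest in CK8.

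The small RNA table held 239732 to 681672 reads per library, and its most abundant sequence, not a miR169, took 62.5% to 84.4% of them. miR169 made up 0.215% (NDGA8) to 0.925% (CK8) of the reads. The transcriptome libraries had 53653395 to 89152239 reads and the degradome libraries 13787038 to 40989117. Of the fixed tissue markers only a pair could be matched. Chalcone synthase (comp115866_c0_seq11), an early enzyme of anthocyanin synthesis, was at 26.3 RPKM in ABA5 against 4.98 in CK5 and at 145 RPKM in ABA8 against 110.1 in CK8. With NDGA it was at 6.73 RPKM in NDGA5 and at 26.7 RPKM in NDGA8, beside 32.0 RPKM in CK0. RPKM is reads scaled to transcript length and library size. Anthocyanidin synthase (comp101059_c0_seq11) was at 121 RPKM in ABA5 against 73.0 in CK5 and at 219 RPKM in ABA8 against 33.2 in CK8. With NDGA it was at 41.8 RPKM in NDGA5, below CK5, but at 104.8 RPKM in NDGA8, above CK8, beside 21.7 RPKM in CK0. Both enzymes were thus higher with ABA on either day, and gave no common direction with NDGA. Achene markers could not be matched to unigenes here, so carry-over of achene RNA was not tested. In whole receptacles, fewer cells of a type and less RNA per cell cannot be told apart.

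Summed over its 12 sequences, miR169 was lower in treated than in water-injected receptacles on both days, and the gap was wider on day 8. The family stood at 1138 normalized reads in CK0, at 1352 in ABA5, 1392 in NDGA5 and 2239 in CK5 on day 5, and at 929 in ABA8, 927 in NDGA8 and 2414 in CK8 on day 8. ABA5 was 1.66-fold lower than CK5 (1.54 to 1.78) and NDGA5 was 1.61-fold lower than CK5 (1.51 to 1.71). On day 8, against CK8, the family was 2.60-fold lower in ABA8 (2.40 to 2.82) and likewise 2.60-fold lower in NDGA8 (2.43 to 2.79). ABA and its synthesis blocker thus stood on the same side of water, and none of these intervals reached equal levels. In water-injected fruit alone, CK5 was 1.97-fold higher than CK0 (1.82 to 2.13), while CK8 was 1.08-fold higher than CK5 (1.02 to 1.13). ABA8 and NDGA8 lay below the day 0 level of 1138. All 4 treated libraries were below their controls also as CPM (reads scaled to the table total) of the table and after median-ratio scaling. The sizes depended on the scaling. ABA5 over CK5 was 0.604 as deposited and 0.854 as CPM, and NDGA5 over CK5 was 0.622 and 0.492. ABA8 over CK8 was 0.385 as deposited and 0.284 as CPM, NDGA8 over CK8 was 0.384 and 0.232, and CK8 over CK5 was 1.08 and 1.81.

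**Figure D2:**
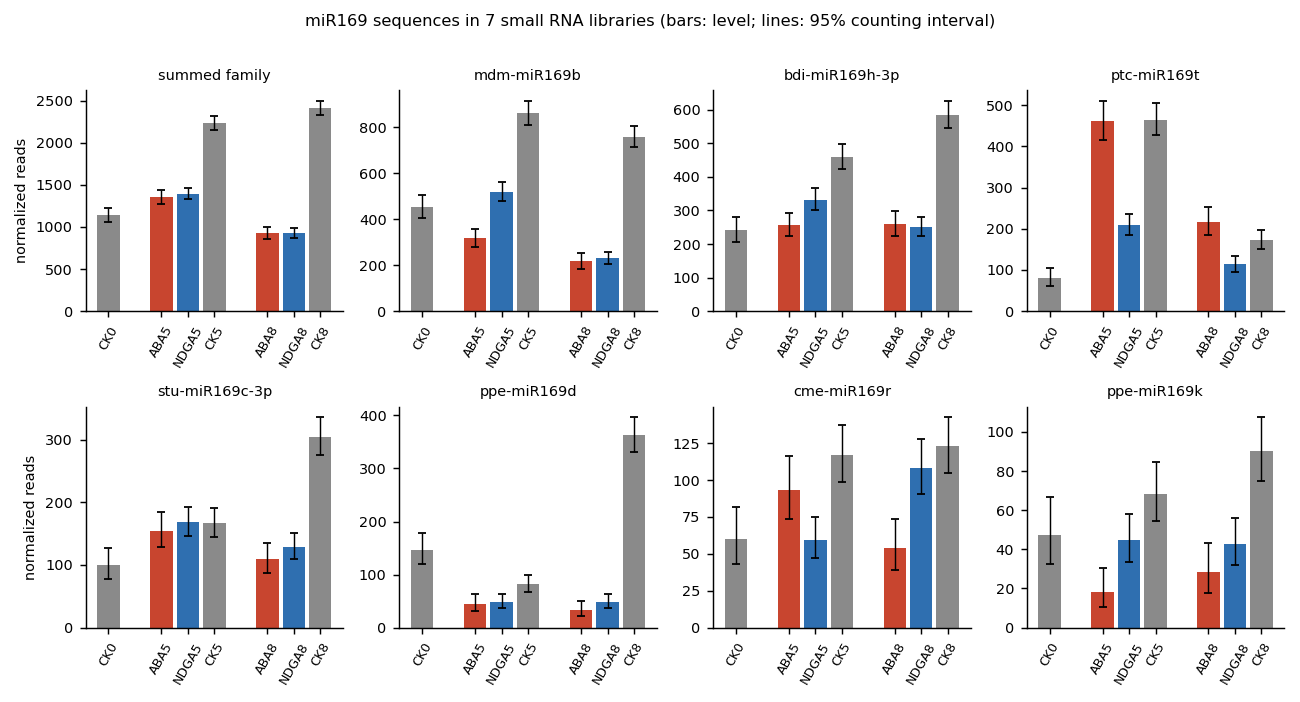
Normalized reads (y axis) of the summed family and of the 7 sequences with at least 50 normalized reads, in 7 libraries (x axis; bars, 1 library each; lines, 95% counting intervals). The summed family lies between 927 and 1392 in the 4 treated libraries, against 2239 in CK5 and 2414 in CK8.

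A sequence was called where normalized reads (plus 1) differed at least 2-fold and reached 10 in 1 of the 2 libraries, and 8 of the 12 sequences could be judged in each comparison. The folds printed here are plain ratios of normalized reads, without the added 1. ABA8 against CK8 gave 6 lower and 0 higher, beside 31.1% lower, 32.4% higher and 63.5% either way over all 222 sequences judged. In NDGA8 against CK8 the members gave 6 lower and 0 higher, beside 22.2% lower, 19% higher and 41.2% either way over 221 sequences. In both comparisons the members' share called lower was above that of all sequences. ABA5 against CK5 gave 3 lower and 0 higher, beside 15% lower, 34.4% higher and 49.4% either way over 247. NDGA5 against CK5 gave 1 lower and 0 higher, beside 11% lower, 10.1% higher and 21.1% either way over 227, a share near the background. Among water controls, CK5 against CK0 gave 2 higher and 0 lower, beside 24.9% higher, 17% lower and 41.9% either way over 229, also a share near the background. As CPM or after median-ratio scaling, this became 1 higher and 1 lower. Over all sequences the calls were then 104 higher and 146 lower as CPM, and 37 and 72 by median ratio. CK8 against CK5 gave 1 higher and 1 lower, beside 18.9% higher, 24.7% lower and 43.6% either way over 227. The rare mdm-miR169c_R-2 is among these calls, lower in ABA5 and NDGA8 and higher in CK5 against CK0, on 20 reads or fewer in each library. The median log2 difference of the 8 members was -0.84 in ABA5 against CK5, -1.32 in ABA8 against CK8, -0.67 in NDGA5 against CK5 and -1.23 in NDGA8 against CK8. Over all judged sequences these medians were 0.34, -0.05, -0.04 and -0.04, in the same order. Both treatments share their water control of the same day, so the values of ABA and NDGA are not independent of each other.

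mdm-miR169b, the most abundant member, was lower in each treated library than in its water control. It had 454 normalized reads in CK0, 318 in ABA5, 519 in NDGA5 and 862 in CK5 on day 5, and 217 in ABA8, 231 in NDGA8 and 758 in CK8 on day 8. Water-injected fruit held the highest level on either day. ABA5 had 2.71-fold less of it than CK5 (2.37 to 3.12). On day 8, ABA8 had 3.50-fold less (2.97 to 4.15) and NDGA8 3.28-fold less (2.88 to 3.76) than CK8. In NDGA5 it was 1.66-fold lower than in CK5 (1.503 to 1.83), under the 2-fold limit. As CPM both day 5 calls turned, at a ratio of 0.522 in ABA5 over CK5, no longer past 2-fold, and of 0.477 in NDGA5 over CK5, now past it.

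bdi-miR169h-3p, the opposite arm at the hairpin of LG3 8877679, was also lower in each treated library than in its water control. It had 242 normalized reads in CK0, 256 in ABA5, 332 in NDGA5 and 459 in CK5, and 259 in ABA8, 249.7 in NDGA8 and 584 in CK8. Against CK8 it was lower by a factor of 2.25 in ABA8 (1.93 to 2.64) and of 2.34 in NDGA8 (2.05 to 2.68). On day 5 the differences were smaller, at factors against CK5 of 1.79 lower in ABA5 (1.53 to 2.11) and 1.38 lower in NDGA5 (1.22 to 1.57). The file divides the reads of mdm-miR169b between its LG3 hairpins by a rule that is not stated, so the opposite arm was set against all of them. The ratio of bdi-miR169h-3p to mdm-miR169b was 0.807 in ABA5 (0.669 to 0.972), 0.639 in NDGA5 (0.563 to 0.724) and 0.533 in CK5 (0.480 to 0.590). It was 1.20 in ABA8 (0.9703 to 1.48), 1.08 in NDGA8 (0.917 to 1.28) and 0.771 in CK8 (0.701 to 0.846), beside 0.534 in CK0 (0.441 to 0.647). The interval of each treated library lay above that of its control, except for NDGA5, where it overlapped that of CK5. The other 3p sequence, stu-miR169c-3p, which had no hairpin in the file, was nearly level on day 5 as deposited, with 155 normalized reads in ABA5, 168 in NDGA5 and 166 in CK5 (as CPM, the ratios to CK5 were 1.32 for ABA5 and 0.802 for NDGA5). On day 8 it had 109.6 in ABA8, 129 in NDGA8 and 305 in CK8, 2.78-fold lower in ABA8 (2.21 to 3.58) and 2.37-fold lower in NDGA8 (1.97 to 2.87).

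ppe-miR169d, from the hairpin pair in the LG4 group, had the widest day 8 gap of the 7. It had 146 normalized reads in CK0, 45.4 in ABA5, 48.6 in NDGA5 and 81.7 in CK5, and 33.1 in ABA8, 49.1 in NDGA8 and 363 in CK8. The level in CK8 exceeded all 6 other libraries, and it was 4.44-fold higher than in CK5 (3.56 to 5.52). ABA8 was 10.98-fold lower than CK8 (7.26 to 16.6) and NDGA8 was 7.40-fold lower than CK8 (5.64 to 9.83). On day 5 the differences as deposited stayed under 2-fold, at 1.80-fold lower in ABA5 (1.23 to 2.71) and 1.68-fold lower in NDGA5 (1.22 to 2.37) than in CK5 (as CPM, a ratio of 0.470 in NDGA5).

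ptc-miR169t, from the same LG4 group, followed another course. It had 80.3 normalized reads in CK0, 461 in ABA5, 208 in NDGA5 and 465 in CK5, and 217 in ABA8, 114 in NDGA8 and 173 in CK8. Water-injected fruit had 5.79-fold more of it in CK5 than in CK0 (4.40 to 7.77) and 2.69-fold less in CK8 than in CK5 (2.31 to 3.15) as deposited. As CPM, CK8 over CK5 was 0.622 and no longer past 2-fold, and the 5 members then called in that comparison were all higher. Over all sequences, 279 were then called higher and 63 lower, so the members followed the whole table. ABA5 over CK5 was 0.992 (0.868 to 1.13) as deposited and 1.40 as CPM, whereas NDGA5 was 2.23-fold lower than CK5 (1.92 to 2.59). In ABA8 the level was 1.25-fold higher than in CK8 (1.02 to 1.54), a direction that turned to a ratio of 0.926 as CPM. ptc-miR169t took 34.1% of the miR169 reads in ABA5, against 20.8% in CK5, and 7.06% in CK0.

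The last members of the LG4 group were less frequent. cme-miR169r had 93.2 normalized reads in ABA5, 59.5 in NDGA5 and 117 in CK5, and 53.8 in ABA8, 108 in NDGA8 and 123 in CK8, beside 60.3 in CK0. Of the 4 treated libraries it was called as deposited only in ABA8, at 2.28-fold lower than in CK8 (1.59 to 3.23). In NDGA5 it was 1.96-fold lower than in CK5 (1.46 to 2.62), under the limit, and in NDGA8 1.14-fold lower than in CK8 (0.896 to 1.44). As CPM its ratios were 0.403 in NDGA5, now past 2-fold, 0.533 in NDGA8 and 1.13 in ABA5, where the deposited ratio was 0.798. ppe-miR169k had 18.4 normalized reads in ABA5, 44.5 in NDGA5 and 68.5 in CK5, and 28.5 in ABA8, 42.6 in NDGA8 and 90.0 in CK8, beside 47.3 in CK0. It was lower than the control in ABA5 (3.72-fold, 2.13 to 6.94), ABA8 (3.15-fold, 1.99 to 5.22) and NDGA8 (2.11-fold, 1.52 to 2.98). The 5 hairpins of this stretch of LG4 therefore did not give one common pattern over the libraries.

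**Figure D3:**
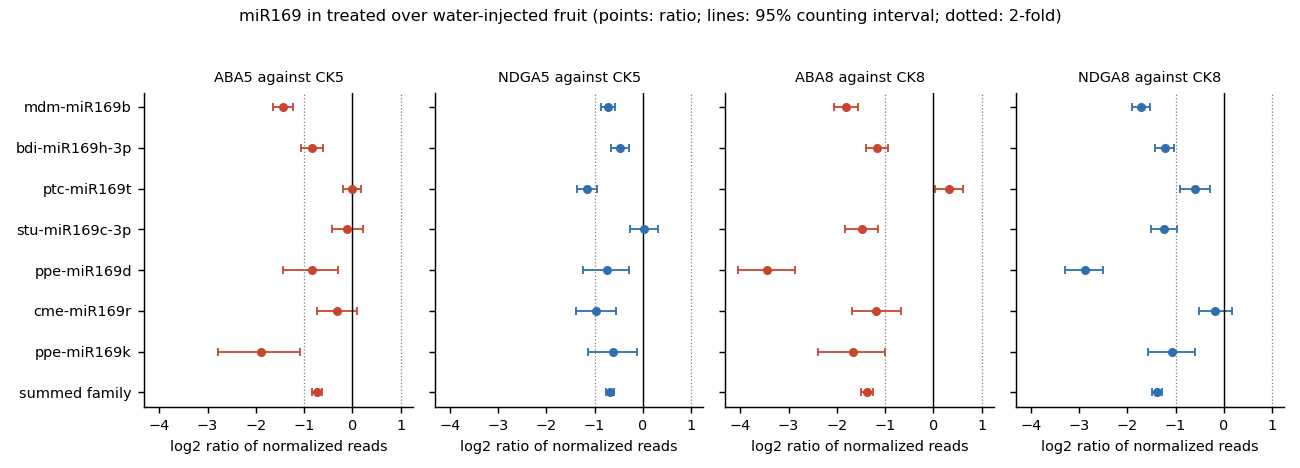
Log2 ratio of normalized reads in treated over water-injected receptacles (x axis; dotted lines at 2-fold) for the 7 sequences and the summed family (y axis), with 95% counting intervals as lines. On day 8 ppe-miR169d is 10.98-fold lower in ABA8 and 7.40-fold lower in NDGA8 than in CK8, and ptc-miR169t is the only sequence to the right of 0 in ABA8.

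Set against 116 sequences outside the family that reached 50 normalized reads somewhere, the pattern most like that of the summed family was that of the predicted miRNA PC-3p-24055_144. Its Pearson r was 0.92 on log2 normalized reads over the 7 libraries. mdm-miR167a (r = 0.83), of a family that targets auxin response factors in other plants, and mdm-miR399i (r = 0.82), of a family known for phosphate supply, came next. These values are descriptive, since the 7 points share their library scaling and the 3 were picked as the highest of 116.

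Degradome sequencing addressed which transcripts were cleaved at miR169 sites. The table listed 4 of the 12 miR169 sequences (mdm-miR169b, ppe-miR169k, ppe-miR169d and bdi-miR169h-3p, under partly different names) with 33 predicted target transcripts from 18 assembly components. A component is a group of transcripts that the assembler could not separate, such as isoforms or close copies. Reads at the predicted site were found for 16 transcripts of 6 components, and no read was listed for the 17 others. bdi-miR169h-3p had 6 predicted targets and no site with reads. In all 28 pairs of a miR169 sequence and a site with reads, the listed site lay opposite base 10 of the miRNA. Reads are listed only at the predicted site, so this count cannot show how precise the cleavage was. Of the 22 miR169 positions with reads, 6 reached category 0 in a library, and 6 had reads in all 7 libraries, of which 3 are isoforms of 1 component. Category 0 in the usual scheme marks a site that is the tallest on its transcript, and category 4 a single read. For the 299 positions of other named miRNAs, 57 (19.1%) reached category 0, and 66 (22.1%) had reads in all 7 libraries. Isoforms of 1 component that list the same reads are counted once in what follows. Counted in this way, miR169 sites held 226 of the 104818 reads at all listed sites.

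The sites with the most reads lay on 4 components annotated as transcription factors or grouped with one. comp117375_c0_seq8, comp106575_c1_seq7 and comp98831_c0_seq3 carried the Gene Ontology term CCAAT-binding factor complex, while comp98831_c0_seq4, comp98831_c0_seq7 and comp97705_c0_seq11 carried DNA-binding transcription factor activity. The files do not name the NF-Y subunit, and NF-YB and NF-YC unigenes were not analysed here. These sites were at nucleotide 1281 of 1546 in comp117375_c0_seq8, 1245 of 1513 in comp106575_c1_seq7, 1139 of 1492 in comp97705_c0_seq11 and 1238 of 1604 in comp98831_c0_seq3. They thus lay towards the 3′ end of each assembled transcript, and the coding regions of these transcripts are not given in the files.

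comp98831 had reads of category 0 in every library. Its site had 9 reads in CK0, 15 in ABA5, 9 in NDGA5 and 8 in CK5, and 7 in ABA8, 4 in NDGA8 and 8 in CK8. In reads per 10000000 of the degradome library this was 2.20 in CK0, 4.01 in ABA5, 4.68 in NDGA5 and 4.36 in CK5, and 3.05 in ABA8, 2.90 in NDGA8 and 3.45 in CK8. comp117375_c0_seq8 had 14 reads in CK0, 18 in ABA5, 3 in NDGA5 and 4 in CK5, and 3 in ABA8, 2 in NDGA8 and 2 in CK8, with category 0 in ABA5 and CK0 and category 2 elsewhere. A further site at nucleotide 101 of the 202-nucleotide fragment comp117375_c0_seq5, of the same component, had 12 reads in CK0, 28 in ABA5, 2 in NDGA5 and 7 in CK5, and 7 in ABA8, 4 in NDGA8 and 2 in CK8. Per 10000000 reads ABA5 was the highest library at both sites of comp117375, at 4.81 for comp117375_c0_seq8 with CK0 next at 3.42, and at 7.49 for comp117375_c0_seq5 with CK5 next at 3.82.

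comp106575_c1_seq7 had 6 reads in CK0, 1 in ABA5, 2 in NDGA5 and 1 in CK5, and 5 in ABA8, 1 in NDGA8 and 4 in CK8. comp97705_c0_seq11 had 14 reads in CK0, and from 0 to 4 in each of the others. Summed over the 5 sites, reads per 10000000 were 13.4 in CK0, 17.6 in ABA5, 8.85 in NDGA5 and 11.4 in CK5, and 10.5 in ABA8, 7.98 in NDGA8 and 7.33 in CK8. ABA5 over CK5 was 1.54 (0.931 to 2.65), ABA8 over CK8 1.43 (0.735 to 2.83), NDGA5 over CK5 0.773 (0.383 to 1.54) and NDGA8 over CK8 1.09 (0.461 to 2.46). Without the fragment comp117375_c0_seq5, ABA5 over CK5 was 1.33 (0.705 to 2.66) and ABA8 over CK8 1.15 (0.538 to 2.46). Both NDGA directions then turned, to 1.02 in NDGA5 over CK5 (0.460 to 2.29) and 0.785 in NDGA8 over CK8 (0.271 to 2.05). All 30 ratios of single sites over the 6 comparisons, and all 6 of the sums over the 5 sites, had intervals that held equal rates on this scale. Set against the reads at all listed sites instead, a scale added after seeing the data, ABA5 over CK5 was 4.66 (2.81 to 8.01) and ABA8 over CK8 was 8.37 (4.31 to 16.6), intervals that left out equal shares. On that scale NDGA5 over CK5 was 0.855 (0.424 to 1.70) and NDGA8 over CK8 was 1.55 (0.658 to 3.51). The reads at all listed sites were 12820 in ABA5, 17984 in NDGA5 and 18997 in CK5, and 2554 in ABA8, 6305 in NDGA8 and 15133 in CK8, so that the scales part most for ABA8. Which of them measures cleavage better was not tested.

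**Figure D4:**
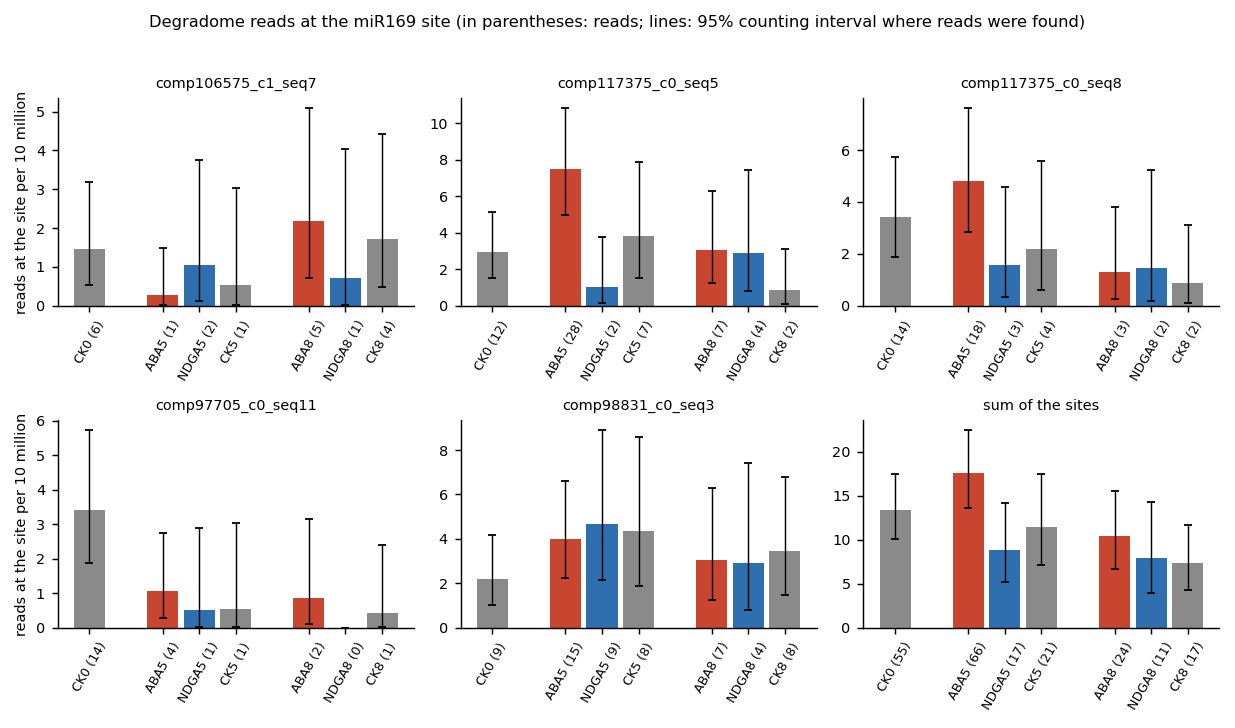
Degradome reads at 5 miR169 sites and their sum, per 10000000 reads of the library (y axis), in 7 libraries (x axis; reads in parentheses; bars, 1 library each; lines, 95% counting intervals). comp98831 has reads in every library, and the sum lies between 7.33 (CK8) and 17.6 (ABA5) per 10000000.

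The 1-base offset between the mature sequences appeared again in their listed sites. Reads at positions this close cannot be assigned to a given miRNA sequence, and which sequence directed each cut was not tested. The sites above match mdm-miR169b, and ppe-miR169k at 4 of the 5. ppe-miR169d, with its extra 5′ base, was listed 1 nucleotide further on for comp117375, comp97705 and comp98831. Over the 4 components, the positions of mdm-miR169b and ppe-miR169k held 211 reads and the shifted positions of ppe-miR169d held 13. The 211 include 20 reads on comp106575, which had no shifted position with reads. Of the 13 reads at shifted positions, 7 were on comp97705_c0_seq11 (6 in CK0 and 1 in CK5). In CK8, where ppe-miR169d itself was highest, the shifted positions held 2 reads against 17 at the main ones, 4 of these on comp106575.

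The other listed targets had little or no cleavage signal. Those of comp111297, with a term for methylmalonate-semialdehyde dehydrogenase of the mitochondrion, shared 1 read of category 4 in ABA5 over 8 isoforms. comp116243_c0_seq1, with terms for a protein serine/threonine kinase and calcium binding, had 1 read of category 4 in CK5. Terms among the 17 transcripts with no read included RNA lariat debranching enzyme (comp107157_c0_seq8) and tryptophan-tRNA ligase (comp108717_c1_seq4), and most had no term.

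The RPKM of the target transcripts was then compared. A transcript was called where RPKM plus 0.1 differed at least 1.5-fold and reached 1 RPKM in 1 of the 2 libraries. Of the 33 listed targets, 19 could be judged in ABA5 against CK5, with 4 higher and 0 lower, beside 15.1% higher, 13% lower and 28% either way over all 47461 unigenes judged. ABA8 against CK8 gave 0 higher and 7 lower of 24, beside 18.7% higher, 36.1% lower and 54.9% either way. NDGA5 against CK5 gave 7 higher and 2 lower of 24, beside 14.8% higher, 11.8% lower and 26.6% either way. NDGA8 against CK8 gave 3 higher and 6 lower of 27, beside 20.7% higher, 15.3% lower and 36% either way. CK5 against CK0 gave 2 higher and 9 lower of 25, beside 17.1% higher, 30% lower and 47.1% either way. CK8 against CK5 gave 10 higher and 0 lower of 24, beside 22.3% higher, 18.8% lower and 41.1% either way. Several of these are isoforms of the same component and share reads. The 16 transcripts with reads at the site gave 0 calls in ABA5, 1 lower in ABA8, 4 higher in NDGA5 and 3 higher in NDGA8, each against its water control.

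comp98831, with the CCAAT-binding term on comp98831_c0_seq3 and category 0 in all 7 libraries, was higher with NDGA on both days. Summed over its 8 unigenes, RPKM was 7.53 in CK0, 3.91 in ABA5, 7.48 in NDGA5 and 3.78 in CK5. On day 8 this sum was 3.33 in ABA8, 7.12 in NDGA8 and 4.32 in CK8, a narrower gap than in the listed isoforms below. comp98831_c0_seq3 was at 2.04 RPKM in CK0, 0.492 in ABA5, 1.44 in NDGA5 and 0.726 in CK5, and at 0.622 in ABA8, 1.499 in NDGA8 and 0.496 in CK8. Both NDGA libraries lay above the other 4 libraries of day 5 and 8 and below CK0. The level in NDGA5 was 1.98-fold higher than in CK5 (1.501 to 2.64), and in NDGA8 3.02-fold higher than in CK8 (2.18 to 4.23). Its isoforms comp98831_c0_seq4 and comp98831_c0_seq7 were 2.41-fold (1.83 to 3.20) and 3.53-fold (2.39 to 5.35) higher in NDGA5 than in CK5. In NDGA8 these isoforms were 2.57-fold (1.90 to 3.49) and 3.03-fold (2.05 to 4.54) higher than in CK8. ABA8 was within counting error of CK8 for all 3 isoforms. In water-injected fruit, comp98831_c0_seq3 was 2.81-fold lower in CK5 than in CK0 (2.13 to 3.74).

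comp106575_c1_seq7 differed most over time. It was at 4.20 RPKM in CK0, 0.533 in ABA5, 1.04 in NDGA5 and 0.374 in CK5, and at 0.623 in ABA8, 1.34 in NDGA8 and 1.89 in CK8. CK5 was 11.2-fold lower than CK0 (7.92 to 16.4), and CK8 was 5.05-fold higher than CK5 (3.51 to 7.46). NDGA5 was 2.78-fold higher than CK5 (1.90 to 4.17), whereas ABA8 was 3.04-fold lower than CK8 (2.34 to 3.97). The difference of NDGA8 from CK8 (1.41-fold lower, 1.11 to 1.80) did not reach 1.5-fold. comp97705_c0_seq11 was at 1.35 RPKM in CK0 and from 0.243 (ABA5) to 0.721 (CK8) in the 6 later libraries. CK5 was 4.96-fold lower than CK0 (3.20 to 7.98), and CK8 was 2.66-fold higher than CK5 (1.67 to 4.38). Summed over the 5 unigenes of comp97705, RPKM was 4.05 in CK0, 0.440 in ABA5, 1.81 in NDGA5 and 0.712 in CK5. On day 8 this sum was 2.49 in ABA8, 1.58 in NDGA8 and 3.65 in CK8, so that the component came near its day 0 level in CK8.

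comp117375_c0_seq8, the best expressed of the cleaved factors, was nearly level. It was at 8.64 RPKM in CK0, 11.7 in ABA5, 9.60 in NDGA5 and 11.1 in CK5, and at 10.0 in ABA8, 8.98 in NDGA8 and 11.999 in CK8. No comparison reached 1.5-fold, and the widest was NDGA8, 1.34-fold lower than CK8 (1.22 to 1.46). The fragment comp117375_c0_seq5 stayed below 1 RPKM in every library. The remaining transcript with the CCAAT-binding term, comp102198_c0_seq4, had no listed miR169 site, and it was 3.13-fold lower in CK5 than in CK0 (2.34 to 4.22). Of the 4 CCAAT transcripts, 3 were called lower and 0 higher in CK5 against CK0, beside 30% lower over all 50956 unigenes judged.

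**Figure D5:**
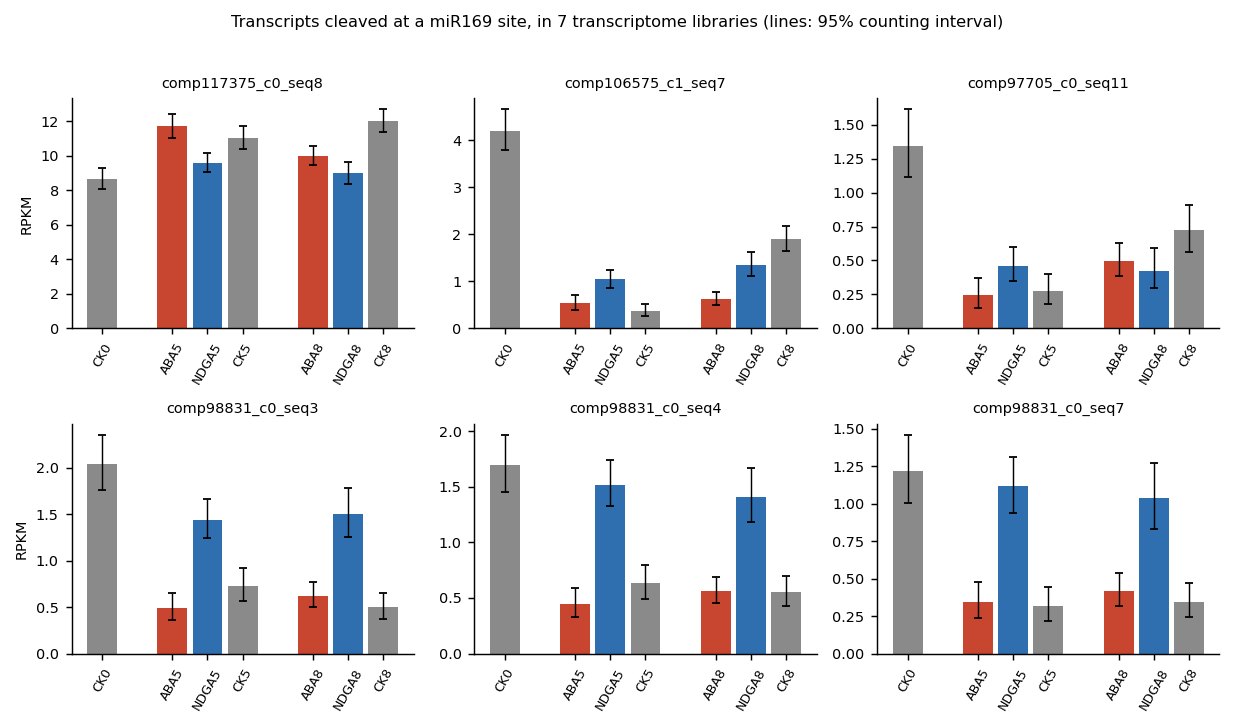
RPKM (y axis) of 6 transcripts with a cleaved miR169 site, in 7 transcriptome libraries (x axis; bars, 1 library each; lines, 95% counting intervals from the reads recovered). The 3 isoforms of comp98831 are higher in NDGA5 and NDGA8 than in the ABA and water libraries of the same day, and comp117375_c0_seq8 stays between 8.64 and 11.999 RPKM.

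Set side by side, miRNA and target did not move in one fixed relation. The summed miR169 level used here includes sequences with no site with reads on these targets. With only the seed AGCCAAG, the ratio was 0.294 in ABA8 over CK8, 0.323 in NDGA8 over CK8 and 1.86 in CK5 over CK0. In ABA8 against CK8, where summed miR169 was 2.60-fold lower, comp106575_c1_seq7 was 3.04-fold lower as well. Below 1 RPKM in both libraries, comp97705_c0_seq11 was 1.45-fold lower (1.03 to 2.06) and comp98831_c0_seq3 1.25-fold higher (0.884 to 1.79). comp117375_c0_seq8 was 1.20-fold lower (1.11 to 1.30) as deposited, where the median log2 difference of all unigenes judged was -0.279. After median-ratio scaling, the ratio was 0.384 for comp106575_c1_seq7 and 0.972, nearly level, for comp117375_c0_seq8. In NDGA8 against CK8, also with miR169 2.60-fold lower, comp98831_c0_seq3 was 3.02-fold higher. The other cleaved factors were lower there. The folds were 1.41 for comp106575_c1_seq7 (1.11 to 1.80), 1.34 for comp117375_c0_seq8 (1.22 to 1.46) and 1.70 for comp97705_c0_seq11 (1.12 to 2.63, below 1 RPKM). In CK5 against CK0, with miR169 1.97-fold higher, comp98831, comp106575 and comp97705 were lower and comp117375_c0_seq8 was 1.28-fold higher (1.16 to 1.40). These values come from single pooled libraries, and whether the miRNA level had a part in any of them was not tested.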

How the data were processed

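Of 21 libraries (7 conditions, 3 assays, 1 pooled library each), all were used. The small RNA table holds deposited estimated counts, in which the authors divided reads between loci (47.7% of the values above 0 in paired rows of one sequence end in a fraction of 0.5), and a deposited normalized score, equal to the counts times 1 factor per library. Rows that share a sequence were summed. The degradome table holds read counts, a normalized score and a category, per the file headers; library totals were derived from the deposited reads-per-billion score. The deposited RPKM values come from a Trinity and TGICL assembly by the authors; all values gave whole reads (within 0.02 of a read), which served only for counting intervals. The aligner, target predictor and genome build were not stated. Unigenes blank in a library (421 to 5375) stayed out of that comparison.

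Ratios were given with 95% Clopper-Pearson intervals (Python 3.11.15, scipy 1.17.1) and size rules of 2-fold for small RNAs (pseudocount 1, minimum 10) and 1.5-fold for unigenes (pseudocount 0.1 RPKM, minimum 1). Both were run on simulated reads with counting error only and with changes larger than these limits. Smaller changes and other variation between libraries were not covered. The unigene table carries no annotation, so the CCAAT list came from the degradome table's terms, and the markers chalcone synthase and anthocyanidin synthase from identifiers in the study's supplement; other fixed markers could not be matched. Members and lists were chosen with earlier results of these data known. Named were sequences that reached 50 normalized reads anywhere, sites of category 0 to 2 or with 10 reads, and the 3 sequences most like the family.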

Additional observations from a re-analysis of the deposited data

Results flagged for a closer look

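A total of 4 sequences that the table names as predicted new miRNAs lie inside miR169 hairpins on LG4, outside the family by name, and had more reads than the 3 that a count of 0 allows. They were found after their values were seen. PC-3p-917_3142, the right-hand arm of the hairpin printed in the report, reached 1546 reads, in CK8. It had 358 normalized reads in ABA8, 339 in NDGA8 and 1140.4 in CK8, against 358 in ABA5, 282 in NDGA5, 333 in CK5 and 351 in CK0. ABA8 was 3.19-fold lower than CK8 (2.80 to 3.63) and NDGA8 3.36-fold lower than CK8 (3.02 to 3.76), while CK8 was 3.43-fold higher than CK5 (3.07 to 3.83). It exceeded its 5′ partner ppe-miR169d in every library, 10.8-fold in ABA8 (7.09 to 16.5), 6.90-fold in NDGA8 (5.25 to 9.20) and 3.14-fold in CK8 (2.84 to 3.48). In CK8 its 1140.4 normalized reads exceeded those of each sequence named miR169, of which mdm-miR169b was highest at 758. PC-3p-50124_47, the 3′ arm of the cme-miR169r hairpin, reached 63 reads. PC-3p-30227_101, the 3′ arm of the ppe-miR169k hairpin, reached 33 reads. PC-5p-115412_16, which is cme-miR169r with an added 3′ base, reached 10 reads.

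Among listed targets with no degradome read, 4 transcripts were called in opposite directions on day 5 and day 8, and this difference was not tested. They were picked by that rule, and the share of all unigenes with opposite calls is not given here. Over all unigenes judged, 28% were called either way in ABA5 and 54.9% in ABA8. With NDGA these shares were 26.6% in NDGA5 and 36% in NDGA8. comp92451_c0_seq2, with terms for membrane transport, had a ratio of 2.45 in ABA5 over CK5 (1.36 to 4.60) and of 0.359 in ABA8 over CK8, and its isoform comp92451_c0_seq3 had 3.19 (1.75 to 6.13) and 0.350. comp97776_c0_seq1 had 2.83 in NDGA5 over CK5 (1.76 to 4.71) and 0.554 in NDGA8 over CK8. comp98838_c2_seq1 had 1.65 in NDGA5 over CK5 (1.12 to 2.46) and 0.627 in NDGA8 over CK8. All 4 had higher levels in CK8 than in CK5, from 3.04-fold to 8.04-fold.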

How the results depend on the processing

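No paired analysis was possible because each condition had 1 pooled library per assay, and for the same reason no library could be left out. The family stayed below its water control in all 4 treated libraries under every alternative run. As CPM of the table, its ratio to the control was 0.854 for ABA5 and 0.284 for ABA8, 0.492 for NDGA5 and 0.232 for NDGA8, with 1.55 in CK5 over CK0 and 1.81 in CK8 over CK5. Median-ratio scaling gave 0.425 in ABA8, 0.661 in NDGA5 and 1.49 in CK5 over CK0. Without the most abundant sequence it was 0.751 in ABA5, 0.430 in ABA8, 0.420 in NDGA8 and 1.20 in CK8 over CK5. With only the seed AGCCAAG it was 0.359 in ABA5, 0.294 in ABA8 and 0.323 in NDGA8, and CK8 over CK5 turned to 0.909. The highest row in place of the sum, chosen after seeing the data, gave 0.681 in ABA5, 0.448 in ABA8 and 0.429 in NDGA8.

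Sequences called at 1.5-fold were 5 in ABA5, 5 in NDGA5 and 7 in CK5 against CK0, in place of 3, 1 and 2. NDGA5 had 2 with no minimum and 4 as CPM, which gave 5 in CK8 against CK5 in place of 2. CK5 against CK0 had 1 with a minimum of 50 and 1 with a pseudocount of 5. Its 2 calls, both higher as deposited, became 1 higher and 1 lower by median ratio and as CPM. There ppe-miR169d had a ratio of 0.422 by median ratio and 0.440 as CPM, in place of 0.559 as deposited. CPM shifted the median of all sequences by 0.64 for ABA5, -0.87 for ABA8, -0.39 for NDGA5, -1.01 for NDGA8, -0.54 in CK5 and 1.02 in CK8 (log2, the last pair against CK0 and CK5). The calls over all sequences then moved to 298 higher and 68 lower in ABA5 (85 and 37 as deposited), 132 and 300 in ABA8 (72 and 69), 46 and 108 in NDGA5 (23 and 25), 56 and 296 in NDGA8 (42 and 49), 104 and 146 in CK5 (57 and 39; 37 and 72 by median ratio) and 279 and 63 in CK8 (43 and 56). Median-ratio scaling shifted that median by 0.23 in ABA8, 0.11 in NDGA5 and -0.56 in CK5, and that of all unigenes by 0.25 in ABA8 and -0.13 in NDGA8. Unigenes so rescaled had 13308 higher and 14548 lower in ABA8 (9503 and 18346 as deposited) and 7895 and 9460 in NDGA8 (10606 and 7855).

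Listed targets called, 4 for ABA5, 7 for ABA8, 9 for either NDGA day, 11 in CK5 and 10 in CK8, became 8 for ABA5, 11 for ABA8 and 18 in CK5 with no filter. With a minimum of 5 RPKM they were 0 for ABA5, ABA8 and NDGA5, 2 for NDGA8, 1 in CK5 and 2 in CK8. At 2-fold they were 2 in ABA5 and 5 in NDGA8, and with a pseudocount of 1 they were 5 in NDGA8. Summed per component, chosen after seeing the data, they were 2 for ABA5, 4 for ABA8, 5 for NDGA5, 4 for NDGA8 and 6 in CK8. Transcripts with reads at the site, also chosen then, gave 0, 1, 4, 3, 5 and 1 in the same order. CCAAT transcripts called, 1 in ABA8, 2 in NDGA5, 1 in NDGA8, 3 in CK5 and 1 in CK8, were 2 in ABA8 and 2 in CK8 with no filter, 0 in each with 5 RPKM, 2 in ABA8 summed per component, and in NDGA5 0 with a pseudocount of 1 and 1 at 2-fold. Degradome ratios of the 5 sites stayed inside their counting intervals when only category 0 to 2 or the normalized score was used. In that order, ABA5 over CK5 was 1.68 and 1.75, ABA8 over CK8 1.52 and 1.68, and NDGA5 over CK5 0.804 and 0.670. Scaled to the reads at all listed sites, chosen after seeing the data, the ratios were 4.66 in ABA5 and 8.37 in ABA8, in place of 1.54 and 1.43. The causes of these shifts were not tested.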
